A study of Mus musculus with 10 samples.

Results

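The alpha-defensins are a family of small antimicrobial peptides, and in mice they are made by Paneth cells, the secretory cells at the base of the small intestinal crypt. Members were taken as all mouse genes whose symbol starts with Defa followed by a digit, -rs or -ps, after the Ensembl IDs of the files had been matched to symbols of the GENCODE M21 annotation. Of 39 such genes in the annotation (22 protein coding, 17 pseudogenes, 0 with an -rs symbol), 27 had values among the 28987 IDs of the series. A member was called detected where it reached 1 TPM in 2 or more libraries, TPM (transcript number scaled to a fixed total) being a share of all transcripts corrected for gene length. This left 21 detected members, 16 protein coding and 5 pseudogenes. Of the other 6 with values, Defa-ps11, Defa-ps12, Defa-ps13, Defa-ps14 and Defa-ps15 were listed at 0 in every library, and Defa-ps9 was above 0 in 1 library alone, at 0.908 TPM in Ctrl 1. The members nearest above the limit were Defa-ps16, with 2.25 TPM in OE 3 and 1.10 TPM in KO 2, and Defa-ps4, with 2.09 TPM in OE 3, 1.86 TPM in OE 5 and 1.50 TPM in Ctrl 1. The coding genes Defa2, Defa20, Defa25, Defa32, Defa33 and Defa36 and the pseudogenes Defa-ps1, Defa-ps5, Defa-ps6, Defa-ps8, Defa-ps10 and Defa-ps17 were not analysed here.

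Total RNA of ileal crypts was sequenced single-end in 10 libraries of 3 groups, from C57Bl6 mice labelled male and 12 weeks old. OE (n = 5) carries the genotype label VilCreER;icS5 (STAT5IEC+++), KO (n = 2) carries VilCreER;Stat5 (STAT5IEC-/-), and Ctrl (n = 3) carries VilCreER;Stat5 (STAT5+/+). All 3 groups thus carry VilCreER, a Cre recombinase driven by the Villin promoter of the intestinal epithelium and switched on by tamoxifen, and the labels do not mention the drug. STAT5A and STAT5B carry signals of cytokine receptors to the nucleus, where they bind DNA. The icS5 allele is not spelled out in the labels and no control of its line is analysed here, so the line and STAT5 cannot be told apart in OE against Ctrl or in OE against KO. Nothing says that libraries of a group came from separate animals, so the p-values below measure the spread between these samples, part of which may be technical.

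Alpha-defensins are stored in Paneth cell granules as inactive pro-forms, which in mice are cut by the matrix metalloproteinase Mmp7 to the active peptides, also called cryptdins, and are released into the crypt lumen. Paneth cell maturation depends on Wnt signaling through the TCF4 factor (gene Tcf7l2) and on the transcription factor Sox9. The mouse genes arose by repeated duplication, and inbred strains differ in which copies they carry. The detected members lay on chromosome 8 of GRCm38 (mm10) between positions 21025545 and 21735471, a stretch of 710 kb, with 19 on the plus strand and 2, Defa29 and Defa-ps7, on the minus strand.

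The copies are alike enough to bear on the values of single members. In the annotated transcripts, of 168 to 508 bases, each of the 21 detected members had another alpha-defensin at 95.8% identity or more over the aligned bases, with a median of 98.9%. For Defa26 and Defa29 that match covered only a part, 171 aligned bases of a transcript of 372 and 168 of 508. Matches were ranked by percent identity, so a short one could outrank a longer one of lower identity. Only transcripts with a Defa symbol were compared. Defa31 and Defa23 were identical over 377 aligned bases, Defa37 was identical to Defa36 over 403, and Defa3 and Defa17 matched at 396 of 397. How the authors' counting divided reads between such copies is not given in the sources used here, so levels of single members are uncertain, and the family sum is less touched by that division.

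The upstream DNA was also shared. RefSeq promoters of GRCm38.p6 were found for 8 of the 21 detected members (Defa21, Defa22, Defa23, Defa28, Defa30, Defa31, Defa35 and Defa37). In the 250 bases before the start, Defa31 and Defa23 were letter for letter the same, as were Defa21 and Defa22, while Defa35 and Defa37 were 98.0% identical and Defa21 and Defa28, among the least alike, 75.0%. The sequences of Defa31 (chr8:21191323-21191572, plus strand) and Defa21 (chr8:21025295-21025544, plus strand) are shown because each of them is the upstream DNA of 2 detected members. Capitals mark matches of CTTTGAT, a TCF-type motif searched on both strands, which on the gene's strand read ATCAAAG.
Defa31: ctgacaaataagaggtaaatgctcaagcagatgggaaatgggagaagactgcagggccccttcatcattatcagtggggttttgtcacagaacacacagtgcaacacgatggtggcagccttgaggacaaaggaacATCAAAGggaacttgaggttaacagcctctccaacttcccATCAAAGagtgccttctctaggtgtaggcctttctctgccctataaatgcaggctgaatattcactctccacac
Defa21: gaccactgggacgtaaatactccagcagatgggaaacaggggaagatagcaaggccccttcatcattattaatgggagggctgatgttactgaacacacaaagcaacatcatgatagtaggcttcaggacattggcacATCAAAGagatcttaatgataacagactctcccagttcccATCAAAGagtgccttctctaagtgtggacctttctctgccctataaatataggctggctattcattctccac
The matches begin 114 and 74 bases before the start in Defa31, and 112 and 72 bases before it in Defa21. All 8 promoters of detected members held at least 1 match and 5 held 2, against 3.23% of 27025 mouse promoters with at least 1. The TATA motif TATAAA, searched on the gene's strand only, was in 7 of the 8 and in 8.12% of all promoters. The STAT5-type motif TTCNNNGAA, which reads the same on both strands, was in 0 of the 8 and in 7.18% of all promoters. These windows are near-copies of each other and are not independent cases, and a match is a description of letters, not of binding.

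Values below are scaled TPM, the deposited TPM divided by a median-ratio factor for each library, unless TPM or shares are named. No read numbers can be had from TPM, and depth is therefore unknown. Stat5a and Stat5b were lower in both KO libraries than in every Ctrl library and higher in every OE library than in both KO libraries, and neither passed the adjusted test. The library labelled OE 1, at 1.56 for Stat5a and 1.49 for Stat5b, lay within the Ctrl range, as did OE 2 for Stat5a alone, at 2.10. Stat5a differed by 0.40 between OE and Ctrl on the log2 scale (95% interval -0.24 to 1.03, limma adjusted p 0.762). Stat5b differed by 0.82 there (0.08 to 1.56, limma adjusted p 0.755). Ctrl 2 stood apart: 83.7% of its TPM was mitochondrial against 43.3% to 56.97% in the other 9 libraries, and it had 8263 genes at 1 TPM or more against 11050 to 11932. The summed TPM of Y-linked genes was low in OE 3 (0.250), OE 4 (0.140) and Ctrl 3 (3.45) although all mice are labelled male, and lay between 32.3 and 131 elsewhere. The defining Paneth cell genes Lyz1 (lysozyme), Mmp7 and Itln1 were above 0 in all 10 libraries. Neutrophils, which make alpha-defensins in humans, left little trace: their 6 markers summed to at most 16.1, with Mpo at 0 in 5 libraries and S100a8 at 0 in 2.

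The summed alpha-defensins were highest in OE on average, and the libraries of the 3 groups overlapped. The sum was 10072, 7167, 13002, 6796 and 23156 in OE 1 to OE 5, 4258 and 7793.5 in KO 1 and KO 2, and 8802, 437 and 6966 in Ctrl 1 to Ctrl 3. OE 5 and OE 3 lay above every other library, OE 2 and OE 4 lay below KO 2 and Ctrl 1, and Ctrl 2 lay far below the next lowest library, KO 1. The mean ± SD was 12039 ± 6701 in OE (n = 5), 6026 ± 2500.0 in KO (n = 2) and 5402 ± 4397 in Ctrl (n = 3). As a share of the TPM outside mitochondrial genes, alpha-defensins took 1.98%, 1.68%, 3.42%, 1.81% and 4.90% in OE, 1.04% and 1.80% in KO, and 2.20%, 0.0792% and 1.69% in Ctrl. In bulk RNA of crypts, fewer Paneth cells and less alpha-defensin RNA per Paneth cell cannot be told apart.

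**Figure D1:**
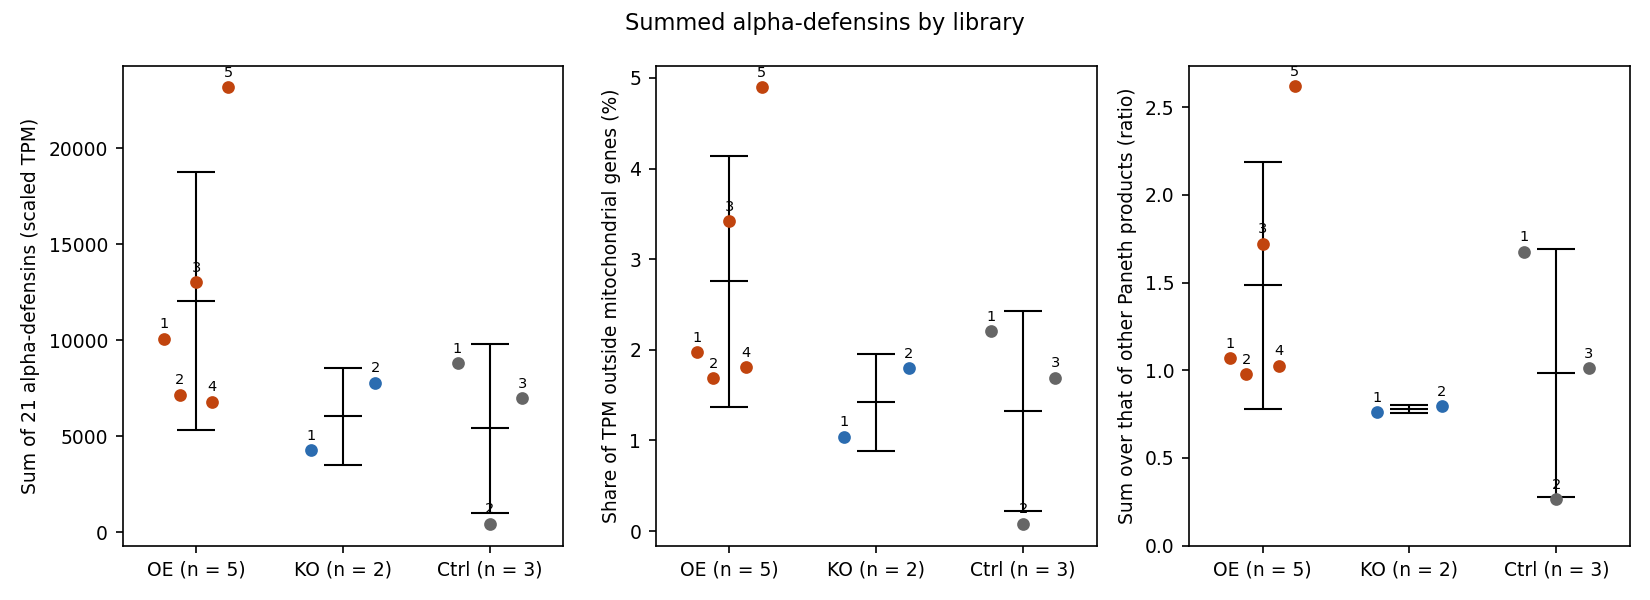
Each point is a library, numbered as labelled, in OE, KO and Ctrl; black bars are the mean ± SD. From left to right the panels give the sum of the 21 detected alpha-defensins in scaled TPM, their share of the TPM outside mitochondrial genes in percent, and their sum over that of 24 other Paneth cell products. OE 5 is highest in each panel, at 23156, 4.90% and 2.62, and Ctrl 2 is lowest, at 437, 0.0792% and 0.266.

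The log2 ratio of the mean sums was 0.16 between KO and Ctrl, 1.16 between OE and Ctrl and 1.00 between OE and KO. These ratios rested on few libraries. For KO against Ctrl the ratio was -0.39 without Ctrl 2 and -0.34 without KO 2, against 0.71 without Ctrl 1, 0.52 without KO 1 and 0.38 without Ctrl 3, so its sign was not stable. For OE against Ctrl it was 0.61 without Ctrl 2, 0.78 without OE 5 and 1.70 without Ctrl 1. For OE against KO it was 0.62 without OE 5, 0.63 without KO 1 and 1.50 without KO 2. Without the 3 libraries of low Y-linked genes the ratio was 0.37 between KO and Ctrl, 1.54 between OE and Ctrl and 1.17 between OE and KO.

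A handful of genes carried most of the family. Defa24, Defa31, Defa30 and Defa17 together made up between 63.1% (Ctrl 2) and 82.9% (OE 5) of the sum. Defa24 was the most abundant, at 2673, 1724.5, 2443, 1585 and 5565 in OE, 1009 and 1799 in KO, and 2229, 138 and 1515 in Ctrl. Defa31 was at 1678.5, 1264, 3378, 1218 and 5196 in OE, 536 and 1062 in KO, and 1308, 86.95 and 1401 in Ctrl. Both followed the sum, with OE 5 highest, Ctrl 2 lowest and KO 1 next to it.

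Defa30 was at 1353, 1234, 2361, 1351 and 3989 in OE, 809 and 1211 in KO, and 1329, 0 and 1086 in Ctrl. Its 0 in Ctrl 2 sets its log2 differences from Ctrl, while Defa24, its nearest copy among the members (98.2% identity), was at 138 there. Defa17 was at 1478, 1245, 1962, 989.7 and 4447 in OE, 716 and 863 in KO, and 1146, 50.9 and 1505 in Ctrl. For Defa31, Defa30 and Defa17 all OE libraries exceeded both KO libraries, though for Defa30 only narrowly, with 1234 in OE 2 against 1211 in KO 2.

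Defa21 and Defa22, the pair with the same upstream DNA and 99.5% transcript identity, came next. Defa21 was at 871, 346, 631, 235 and 592 in OE, 319.7 and 692 in KO, and 789.5, 72.2 and 265 in Ctrl. Defa22 was at 632, 260.5, 515, 244 and 576 in OE, 266 and 424 in KO, and 632, 22.1 and 323 in Ctrl. For both genes OE 1 was the highest library, followed by Ctrl 1 for Defa22 and Ctrl 1 and KO 2 for Defa21, and the groups overlapped. The other pair with shared upstream DNA was unequal: Defa31 averaged 1713 over the 10 libraries and Defa23 averaged 78.4, with the caution that their transcripts are identical over the aligned bases.

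The middle of the family varied more between libraries. Defa34 lay between 130 and 408 in OE, at 186 and 667 in KO, and between 38.9 and 384 in Ctrl. Defa3 was at 156, 239, 413, 427 and 642 in OE, 59.98 and 88.1 in KO, and 222, 0 and 302 in Ctrl, with both KO libraries below all others except Ctrl 2. Defa5 was at 227, 115, 286, 51.3 and 203 in OE, 138 and 380.2 in KO, and 261, 0.183 and 17.9 in Ctrl, with KO 2 highest. Defa37 lay between 86.2 and 658 in OE, at 110.2 and 202 in KO, and between 14.8 and 176 in Ctrl. Defa26 was at 122, 114, 139.9, 105 and 394 in OE, 47.9 and 90.2 in KO, and 124, 13.0 and 99.8 in Ctrl, so that the lowest OE library exceeded both KO libraries.

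Several of the low coding members were high in only 1 or 2 libraries, and Defa29 was spread more evenly. Defa23 reached 354 in OE 5 and 149 in Ctrl 3, and was at most 69.8 elsewhere. Defa35 reached 291 in OE 3 and was at most 102 elsewhere. Defa27 was at 156 in OE 4 and 161 in KO 2, at most 44.3 in the others, and listed at 0 in OE 1, KO 1, Ctrl 2 and Ctrl 3. Defa27 was thus high in 1 library each of OE and KO and at 0 in another library of each. Defa29 lay between 14.7 and 75.1 in OE, at 18.9 and 59.7 in KO, and between 0 and 50.2 in Ctrl. Defa28 reached 24.7 in OE 5 and was listed at 0 in OE 1, OE 4, Ctrl 2 and Ctrl 3.

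The 5 detected pseudogenes were the least abundant of the detected members by mean level. Defa-ps3 was highest, at 20.0 in OE 1 and 8.45 and 3.51 in KO, and at most 3.36 in Ctrl. Defa-ps7 reached 6.04 in KO 2, Defa-ps18 reached 5.68 in OE 1, Defa-ps16 reached 1.92 in OE 3 and Defa-ps4 reached 1.78 in OE 3. Ctrl 2 was lowest or tied at the lowest value for all 21 detected members and had 12 of them listed at 0, against 1 to 5 in the other libraries. OE 5 was the highest library for 9 members, OE 1 for 5, KO 2 for 4 and OE 3 for 3.

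**Figure D2:**
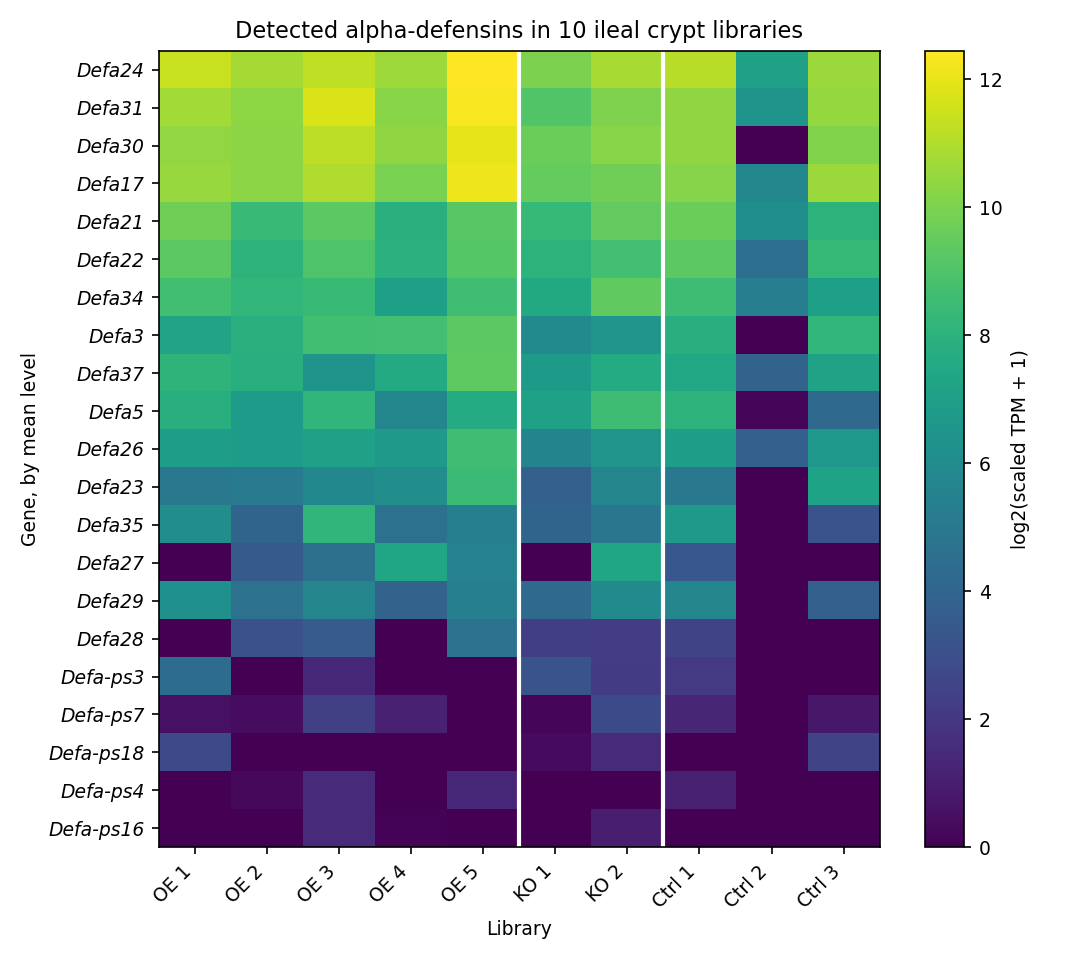
Rows are the 21 detected alpha-defensins by mean level, columns are the 10 libraries in the order OE, KO and Ctrl with white lines between groups, and colour is log2(scaled TPM + 1). The top 4 rows, Defa24, Defa31, Defa30 and Defa17, are bright in every library except Ctrl 2, whose column is the darkest and holds 12 members at 0.

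Deletion of epithelial Stat5 was examined by KO against Ctrl. No alpha-defensin passed the adjusted test. The limma fit over 13056 genes called 0 genes at an adjusted p under 0.05, and 0 of the 21 members, the background being 0%; at an unadjusted p under 0.05 it called 452 genes (3.46%) and 0 members. The log2 difference was above 0 for 20 of 21 members, against 53.0% of all genes, with a median of 0.92 against 0.04 for all genes tested. That count rested on Ctrl 2: without it, 9 of 21 members were above 0 and the median was -0.28. Without KO 2, 13 of 21 were above 0, with a median of 0.57, and with library weights 11 of 21, with a median of 0.03. On group means rather than the log2 scale, 13 of 21 members were higher in KO, and 8 of 21 without Ctrl 2. The groups did not overlap for 1 member, Defa-ps3, which was higher in KO (9.09% of all genes were higher without overlap and 7.27% lower). In TPM as deposited and in TPM closed without mitochondrial genes, 0 members were apart. Defa-ps3 was at 3.68 deposited TPM in KO 2 and 4.10 in Ctrl 1.

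Without Ctrl 2, both KO libraries lay below both remaining Ctrl libraries for 4 of 21 members, Defa31, Defa17, Defa3 and Defa26, against 13.1% of all genes. They lay above them for 1 member, Defa-ps3 (not so in TPM as deposited), against 14.0% of all genes. These counts were made after the values were seen, and Defa3 and Defa17 are near-copies that can share reads. In the fit of all libraries, Defa24 differed by 0.80 on the log2 scale (95% interval -1.48 to 3.07), Defa31 by 0.47 (-1.99 to 2.94) and Defa17 by 0.81 (-1.88 to 3.51). Defa30 differed by 3.13 (-2.24 to 8.50), Defa21 by 0.92 (-1.02 to 2.86), Defa22 by 1.00 (-1.46 to 3.47) and Defa26 by 0.25 (-1.68 to 2.18). Every one of these intervals spans 0 and reaches above 2 on the log2 scale. Defa5 had the smallest p of the family, with a difference of 3.68 (-0.09 to 7.44) and an adjusted p of 0.943 in limma, beside levels of 0.183 in Ctrl 2 and 17.9 in Ctrl 3. The limma adjusted p of the other 7 lay between 0.943 and 0.976.

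OE against Ctrl compared crypts labelled for raised STAT5 with the controls of the other line. Alpha-defensins averaged higher in OE, and none passed the adjusted test. Of 13056 genes, 0 (0%) were called at an adjusted p under 0.05, and 0 of 21 members; at an unadjusted p under 0.05 there were 797 genes (6.10%) and 2 members, Defa5 and Defa31. The log2 difference was above 0 for 20 of 21 members, against 52.1% of all genes, with a median of 1.66 against 0.02. Without Ctrl 2 it was above 0 for 17 of 21, and the median was 0.40; with library weights it was above 0 for 14 of 21, with a median of 0.45. The groups did not overlap for 0 members, with 2.21% of all genes higher and 1.52% lower without overlap.

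Defa5 differed by 3.08 (95% interval 0.06 to 6.09) and Defa31 by 1.98 (0.01 to 3.95), each with a limma adjusted p of 0.755. Defa24 differed by 1.69 (-0.13 to 3.51), Defa17 by 1.96 (-0.20 to 4.12) and Defa26 by 1.44 (-0.11 to 2.99). Defa30 differed by 4.03 (-0.27 to 8.33), a value set by its 0 in Ctrl 2. Defa21 and Defa22 differed least among the abundant members, by 0.96 (-0.59 to 2.51) and 1.30 (-0.67 to 3.27). The adjusted p of these 6 lay between 0.755 and 0.763. Both comparisons with Ctrl share the same 3 Ctrl libraries.

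**Figure D3:**
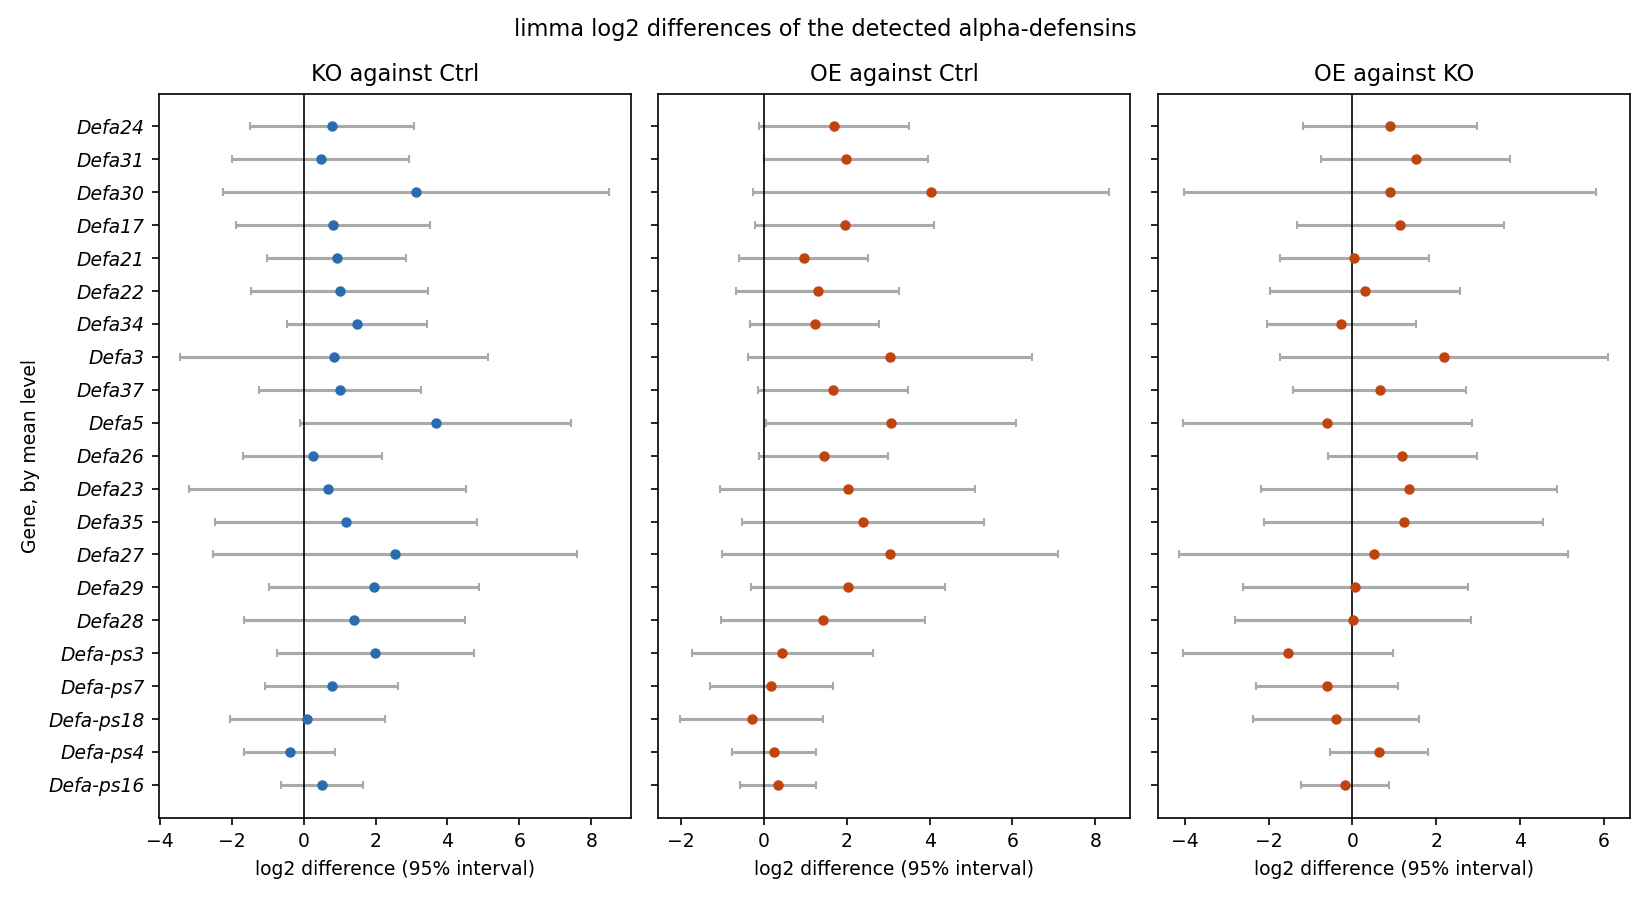
Points are limma log2 differences on the log2(scaled TPM + 1) scale of the 21 detected alpha-defensins, by mean level, with bars for the 95% interval, with KO against Ctrl on the left, OE against Ctrl in the middle and OE against KO on the right. All intervals span 0 except those of Defa5 and Defa31 in the middle panel, which begin just above it, at 0.06 and 0.01.

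OE against KO set the libraries labelled STAT5IEC+++ against those labelled STAT5IEC-/- and used the Ctrl libraries only in the shared estimate of the spread, the scaling and the filter. Several of the most abundant members were higher in every OE library than in both KO libraries, without passing the adjusted test. Of 13056 genes, 0 (0%) were called at an adjusted p under 0.05, and 0 of 21 members; at an unadjusted p under 0.05 there were 385 genes (2.95%) and 0 members. The log2 difference was above 0 for 15 of 21 members, against 49.9% of all genes, with a median of 0.51 against 0.00. Without KO 1 the median was 0.05 with 11 of 21 above 0, without OE 5 it was 0.17, and without KO 2 it was 0.98.

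The groups did not overlap for 5 of the 21 members, Defa31, Defa30, Defa17, Defa3 and Defa26, all higher in OE, where 4.04% of all genes were higher and 4.43% lower without overlap. In TPM as deposited, in TPM closed without mitochondrial genes and after quantile normalization, 4 members remained apart, Defa31, Defa17, Defa3 and Defa26, and Defa30 did not. Without OE 3 and OE 4 the 5 were again apart, with Defa37 beside them, against 12.3% of all genes higher. The 5 belong to a family of near-copies that can share reads, Defa3 and Defa17 above all, and are not 5 independent cases. For Defa26 the nearest match covered only 171 aligned bases of its 372, but longer matches of lower identity are not given here. Defa26 therefore cannot be taken as free of shared reads. Defa26 had the smallest p, with a difference of 1.19 (95% interval -0.58 to 2.96), and Defa31 differed by 1.51 (-0.75 to 3.77). Defa17 differed by 1.14 (-1.33 to 3.62), Defa30 by 0.90 (-4.03 to 5.82) and Defa24 by 0.90 (-1.19 to 2.98). Defa21 differed by 0.04 (-1.74 to 1.82), Defa22 by 0.30 (-1.97 to 2.56) and Defa5 by -0.60 (-4.05 to 2.85), and the limma adjusted p was 1 for all 8.

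The make-up of the family can be read within each library, free of the scaling between libraries. The shares of the 4 leading members varied less than those of most others. Outside Ctrl 2, Defa24 ranged from 18.8% to 26.5% of the sum (1.41-fold), Defa31 from 12.6% to 25.98% (2.07-fold), Defa30 from 13.4% to 19.9% (1.48-fold) and Defa17 from 11.1% to 21.6% (1.95-fold). Among the less abundant members Defa26 varied 1.58-fold, Defa5 varied 19.0-fold, Defa35 varied 18.9-fold, Defa23 varied 7.12-fold and Defa3 varied 5.55-fold.

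**Figure D4:**
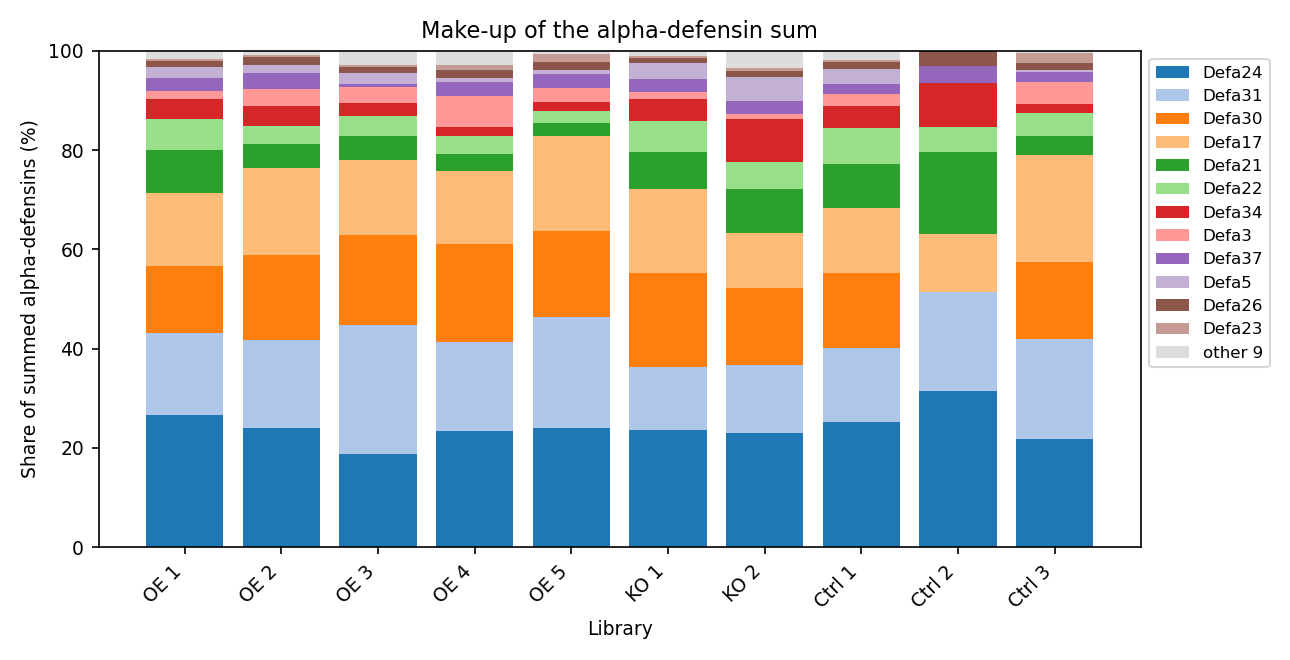
Each bar is a library and shows the share, in percent, of the 12 most abundant alpha-defensins in the family sum, with the remaining 9 in grey. Defa24, at the bottom, takes 18.8% to 31.5% in every library, whereas Defa30 is missing from Ctrl 2.

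Some shares set the KO libraries apart, a pattern picked after the values were seen and given with no test. Defa31 took 16.7%, 17.6%, 25.98%, 17.9% and 22.4% of the sum in OE, 12.6% and 13.6% in KO, and 14.9%, 19.9% and 20.1% in Ctrl, so that KO was below all 8 other libraries. Defa5 took 2.26%, 1.60%, 2.20%, 0.755% and 0.876% in OE, 3.25% and 4.88% in KO, and 2.96%, 0.0419% and 0.257% in Ctrl, so that KO was above all 8 others. Defa3 took 1.54%, 3.33%, 3.18%, 6.28% and 2.77% in OE, 1.41% and 1.13% in KO, and 2.52%, 0% and 4.34% in Ctrl, so that KO was below all others but Ctrl 2. The margins were small, 13.6% in KO 2 against 14.9% in Ctrl 1 for Defa31 and 3.25% in KO 1 against 2.96% in Ctrl 1 for Defa5.

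Defa3 and Defa5 are neighbours, with 9.1 kb from the end of Defa3 to the start of Defa5 on the same strand. Defa3 matched Defa17 at 396 of 397 bases and Defa5 matched Defa34 at 371 of 375, so the division of reads bears on both levels. The ratio of Defa5 to Defa3 was 1.46, 0.482, 0.692, 0.120 and 0.316 in OE, 2.31 and 4.32 in KO, and 1.18 and 0.0592 in Ctrl 1 and Ctrl 3, with Defa3 listed at 0 in Ctrl 2. Both KO ratios lay above all 7 others, which themselves spanned from 0.0592 to 1.46. Defa21 showed no such order: its share was 8.65%, 4.83%, 4.85%, 3.46% and 2.56% in OE, 7.51% and 8.88% in KO, and 8.97%, 16.5% and 3.80% in Ctrl.

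**Figure D5:**
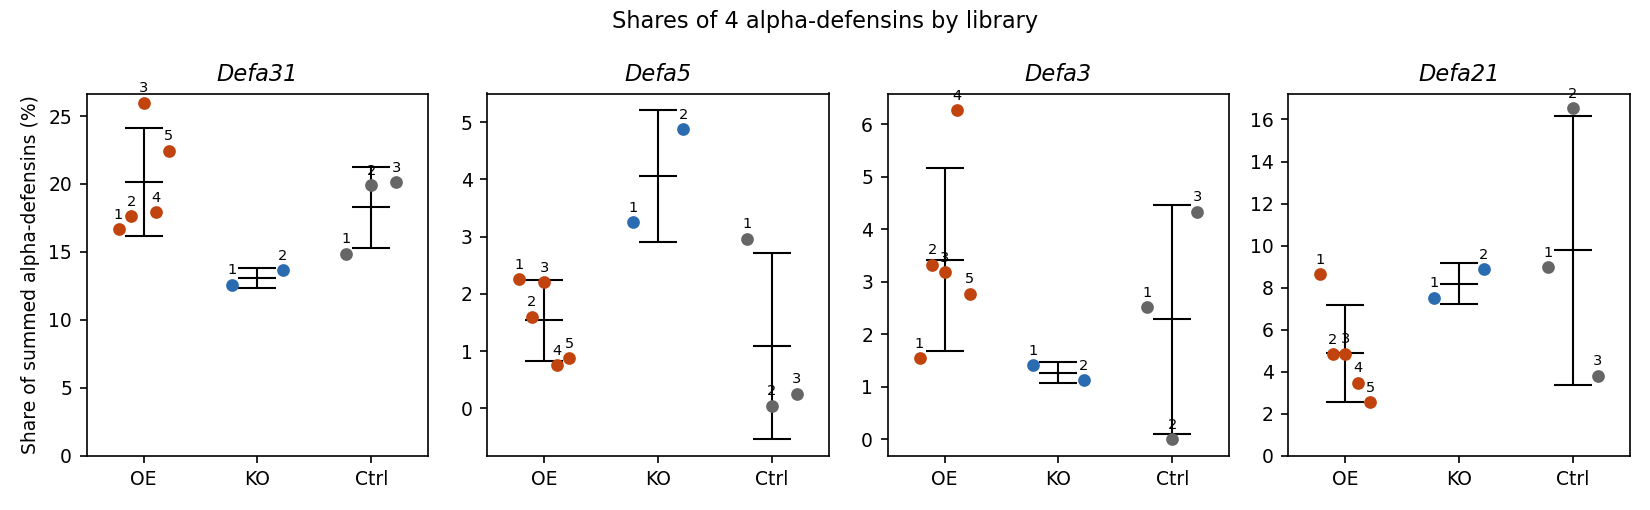
Points are libraries, numbered as labelled, in OE, KO and Ctrl, and give the share of 4 alpha-defensins in the family sum in percent; black bars are the mean ± SD. KO lies below the other libraries for Defa31 (12.6% and 13.6%), above them for Defa5 (3.25% and 4.88%), and within their range for Defa21.

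A list of genes taken as other Paneth cell products was set beside the family. Not all of them ran alike: Guca2b and Reg3a were highest in Ctrl 2, at 570 and 125, where Lyz1 was lowest, at 84.1. The 24 other products with values summed to 9412, 7328.5, 7548, 6618 and 8839 in OE, 5598 and 9807 in KO, and 5254, 1640 and 6883 in Ctrl. The alpha-defensin sum over this sum was 1.07, 0.978, 1.72, 1.03 and 2.62 in OE, 0.761 and 0.795 in KO, and 1.68, 0.266 and 1.01 in Ctrl. Both KO ratios were thus below every OE ratio and below Ctrl 1 and Ctrl 3, and Ctrl 2 was lower still. Against Lyz1 alone no such order held: the ratio was 6.77, 7.86, 3.53, 15.95 and 18.3 in OE, 7.26 and 3.00 in KO, and 4.02, 5.20 and 12.1 in Ctrl. The lectins Reg3b and Reg3g weigh heavily in the sum of other products. They were at 2812 and 1196 in KO 1, 2892 and 2504 in KO 2, 1203 and 624 in Ctrl 1, and 2767 and 665 in Ctrl 3. In OE they ran from 472 and 289 (OE 3) to 4524 and 1563.5 (OE 1). With both lectins taken out of the sum of other products, the order of the KO ratios did not hold. The KO 1 ratio then lay above those of OE 3, OE 4, Ctrl 1 and Ctrl 3. The KO 2 ratio still lay below all libraries but Ctrl 2.

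Of the 24 products, 20 were tested and 0 were called in any comparison. The log2 difference was above 0 for 13 of 20 in KO against Ctrl, with a median of 0.23, for 17 of 20 in OE against Ctrl, with a median of 0.85, and for 13 of 20 in OE against KO, with a median of 0.63. Without Ctrl 2, 6 of 20 were above 0 in KO against Ctrl and 14 of 20 in OE against Ctrl, with medians of -0.19 and 0.17. The 5 most abundant were the lectins Reg3b and Reg3g, which bind bacteria, lysozyme Lyz1, the intelectin Itln1 and the angiogenin Ang4, an antimicrobial ribonuclease. Reg3g averaged 981 ± 539.8 in OE, 1850.0 ± 924 in KO and 506 ± 241 in Ctrl (SD over 5, 2 and 3 libraries), and its log2 difference between KO and Ctrl was 1.92 (95% interval 0.26 to 3.58, limma adjusted p 0.943). Reg3b averaged 2672 ± 1632 in OE, 2852 ± 56.4 in KO and 1467 ± 1190.1 in Ctrl, so that both lectins had their highest mean in KO. Lyz1 averaged 1556 ± 1257 in OE, 1590.5 ± 1420 in KO and 950.3 ± 1102 in Ctrl, Itln1 averaged 1226 ± 729.8 in OE, 712 ± 532 in KO and 645 ± 476 in Ctrl, and Ang4 averaged 525 ± 487 in OE, 165 ± 59.0 in KO and 314 ± 397 in Ctrl. For each of these 5 the larger SD of OE and KO exceeded the gap between their means.

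Pla2g2a, the secreted phospholipase A2 of Paneth cells, is named after its values were seen: it was at 428 in OE 3 and 317 in OE 4, and at most 24.0 in the other 8 libraries, including 0 in Ctrl 2. The gene is known to be disrupted in the C57BL/6 strain. OE 3 and OE 4 are also the libraries with the lowest Y-linked values, and their strain and identity were not tested here.

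Genes that control Paneth cells differed in both directions, with medians near 0. Of 25 regulators with values, 23 were tested and 0 were called in any comparison, with medians of 0.06 between KO and Ctrl (14 of 23 above 0), -0.02 between OE and Ctrl (11 of 23) and 0.07 between OE and KO (15 of 23). Without Ctrl 2 the first 2 of these medians were -0.19 and -0.10, with 8 and 6 of 23 above 0. The 5 most abundant, the mucin Muc13, the cargo receptor Tmed2, the secretory stress factor Xbp1, the GTPase Rab2a and the Wnt receptor Fzd5, had log2 differences between -0.55 and 0.48, with Fzd5 higher in both KO libraries than in all others. Over all 23 the log2 differences ran from -0.42 to 0.72 between KO and Ctrl, -0.36 to 1.15 between OE and Ctrl and -0.55 to 0.77 between OE and KO. The kinase Lrrk2 had the highest value between OE and Ctrl, 1.15 (95% interval -0.02 to 2.31, limma adjusted p 0.755), and Ephb2, a receptor that positions crypt cells, the highest between KO and Ctrl, 0.72 (-0.55 to 1.99, limma adjusted p 0.943). Sox9 averaged 13.2 ± 3.36 in OE, 14.6 ± 1.95 in KO and 11.7 ± 7.99 in Ctrl (SD over 5, 2 and 3 libraries). Wnt3 was under the filter and Wnt3a was listed at 0 in every library.

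Other cell types moved with the lowest alpha-defensin library. The 11 enterocyte markers summed to 14754 in Ctrl 2, against 9426 in OE 1 and 1504 to 3847 in the other 8 libraries, and the 7 markers of crypt base stem cells summed to 85.9 in Ctrl 2 against 119 to 566 elsewhere. Cell cycle genes summed to 69.1 in Ctrl 2 against 158 to 308 elsewhere. B cell and cell cycle markers averaged higher in OE than in Ctrl. The 4 B cell markers summed to 252, 115, 420.5, 1211 and 523 in OE, 222 and 69.4 in KO, and 191, 119 and 33.0 in Ctrl. All 4 had log2 differences above 0 between OE and Ctrl, with a median of 1.99 (1.96 without Ctrl 2 and 0.98 without the 3 libraries of low Y-linked genes), and 3 of 4 between OE and KO, with a median of 1.26, where Jchain, the joining chain of secreted antibodies, was higher in every OE library. OE 4, the highest library in B cell markers, had the lowest alpha-defensin sum of OE. All 7 cell cycle genes had log2 differences above 0 between OE and Ctrl, with a median of 0.82, or 6 of 7 and 0.24 without Ctrl 2. None of these markers was called, and their part in the differences was not tested. KO 1, the next lowest library, had 2065 of the enterocyte markers and 75.2 of the fibroblast markers, against 10.5 to 48.4 in the libraries other than OE 1, at 108.

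Within the same stretch of chromosome 8 lay 19 further genes with values, of which 8 were detected. RefSeq calls 6 of these alpha-defensins: Gm14851 (Defa38), AY761184 (Defa39), Gm15292 (Defa40), Gm15293 (Defa41), Gm7849 (Defa42) and Gm7861 (Defa43). They are outside the symbol rule, and their sum was 957, 523, 903, 333 and 1236 in OE, 288 and 879.7 in KO, and 802, 55.1 and 424 in Ctrl, or 4.90% to 12.6% of the family sum. Adding them left the log2 ratios of the sums at 0.18 between KO and Ctrl, 1.14 between OE and Ctrl and 0.96 between OE and KO. Gm7861 was the most abundant, at 702, 327, 585, 186 and 618 in OE, 181 and 701 in KO, and 599, 30.9 and 165 in Ctrl. Gm14851 lay between 48.2 and 273 in OE, at 49.7 and 75.3 in KO, and between 0 and 84.5 in Ctrl, and Gm15292 lay between 40.9 and 179 in OE, at 32.3 and 48.8 in KO, and between 5.26 and 64.0 in Ctrl. AY761184 and Gm15293 reached 91.4 in OE 5 and 50.2 in OE 2, and Gm7849 was at 79.9 in Ctrl 3 and 25.1 in OE 5 and near 0 in the other 8. The pseudogenes Gm15300 and Gm15312, which carry no Defa name in the RefSeq table, reached 14.1 in Ctrl 1 and 18.8 in OE 5. The RefSeq promoters of Defa38, Defa42 and Defa43 held 0 matches of CTTTGAT, and that of Defa41 held 2.

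The genes whose levels ran most like the family sum are given as a description over libraries that share 1 low point. Over all 10 libraries the median Pearson r of the 21 members, each set against the sum of the others, was 0.851, from 0.143 for Defa-ps18 to 0.992 for Defa24. Most members are near-copies that can share reads. Over all genes tested the median r with the family sum was 0.069. Outside the family the highest values were those of Gm14851 (0.988), Nup85 (0.978), a nuclear pore protein, Gm15292 (0.977), Stmn1 (0.973) and Tubb5 (0.953), which act on or form microtubules, Tceal9 (0.971), Nasp (0.967), a histone chaperone, Rbm8a (0.955), and the mitotic genes Pbk (0.962) and Nuf2 (0.954). Without Ctrl 2 (n = 9) all but Gm14851 (0.944) and Gm15292 (0.947) left the top 10, and the others were Gm49405 (0.957), the tight junction gene Cldn4 (0.937), the transcription factor genes Klf4 (0.933) and Crem (0.900), Pxdc1 (0.921), Fam89a (0.919), Proser2 (0.916) and Def6 (0.887). The r of Mmp7, which cuts the pro-forms, was 0.952 over 10 libraries and 0.743 over 9, that of Lyz1 was 0.832 and 0.507, and that of Sox9 was 0.807 and 0.050. Over the 9 libraries the members' median r with the sum of the others was 0.531, with Defa24 at 0.965, Defa31 at 0.941, Defa30 at 0.951, Defa26 at 0.956, Defa17 at 0.895 and Defa5 at 0.346.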

How the data were processed

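The authors deposited TPM for 28987 Ensembl gene IDs in each of 10 libraries; the unit stands in the file headers except for Ctrl 1, where it was taken from the values, which sum to 981630. Per the submitters' processing notes, which give no versions, TopHat and Cufflinks were used with mm10; the step that gave TPM is not given in the sources used here. Groups are those of the sample titles.

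Symbols were taken by ID from GENCODE M21 (27458 matched, 1529 not). TPM were divided by median-ratio factors over the 11146 genes above 0 in every library (0.295 in Ctrl 2, 0.831 to 1.31 elsewhere). Genes at 1 TPM or more in at least 2 libraries (13056) were tested on log2(scaled TPM + 1), which understates changes of low genes, in limma 3.58.1 (R 4.3.3, intensity trend, 3 group means over all libraries), with Benjamini-Hochberg adjustment over all genes and a threshold of 0.05. The fit was tested on simulated data. Sums and shares of members are descriptions with no test, and 0 value columns were left unmapped.

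Log2 differences are printed for the 6 members of highest mean level, any member called, and the member of smallest p in each comparison; Paneth cell products and regulators by counts and their 5 most abundant genes; and the 10 genes of highest Pearson r with the sum. Every other gene named was chosen after its values were seen. Members, lists and rules were chosen with earlier results of these data known. Alternatives were TPM as deposited, quantile normalization, closure without mitochondrial genes, pseudocounts of 0.1 and 5, no filter or 5 TPM, only the groups compared, robust or weighted fits, a replicate block and leaving out each library. Leaving out the 3 libraries of low Y-linked genes and adding the 6 clone-named genes were chosen after seeing the data. Protein sequences were not used here.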

Additional observations from a re-analysis of the deposited data

Results flagged for a closer look

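A library was looked at again where, among the 5 libraries of OE, the highest or lowest lay far from the nearest other one by Dixon's test. The test covered the 21 detected alpha-defensins, their sum and its ratio to other Paneth cell products, and 9 of the 23 were marked. Chance marks about 1 in 20 only where values are normally distributed. The levels tested were not on the log scale, and Defa-ps3, Defa-ps16 and Defa-ps18 were under 1 TPM in most OE libraries. The 9 therefore cannot be set against 1 in 20, and no excess over chance can be read from them. Members also share libraries and reads, so the 9 are not independent. OE 5 stood above the other OE libraries for Defa24 (5565 scaled TPM), Defa17 (4447), Defa26 (394) and Defa23 (354). OE 3 stood above them for Defa35 (291) and the pseudogene Defa-ps16 (1.92). OE 1 did so for the pseudogenes Defa-ps3 (20.0) and Defa-ps18 (5.68), and OE 4 for Defa27 (156).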

How the results depend on the processing

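No alpha-defensin was called in any comparison under any alternative, and the summed levels do not depend on the pseudocount, the robust or weighted fit or the replicate block. Genes called at an adjusted p under 0.05, 0 in the fit as reported, were 5 in KO against Ctrl and 7 in OE against KO without a filter, 1 each in KO against Ctrl and OE against Ctrl with only the groups compared, and 1 each in OE against Ctrl and OE against KO without the 3 libraries of low Y-linked genes. Leaving out each library in turn gave 0 to 2 genes in KO against Ctrl, 0 to 1 in OE against Ctrl and 0 to 2 in OE against KO. With a replicate block OE against Ctrl had 3 genes. The members' median in OE against KO was then 0.092 with 11 of 21 above 0. There 4 members had turned (Defa23, Defa27, Defa28 and Defa30, the last to -0.29), while 1 turned in OE against Ctrl and 0 in KO against Ctrl. Deviations from group means correlated at -0.177 to 0.0634 between same-numbered libraries and at -0.216 to 0.227 between differently numbered ones. Deviations within a group sum to 0, so those of KO 1 and KO 2 mirror each other. These correlations therefore cannot decide whether the numbers pair libraries.

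In KO against Ctrl, leaving out each library moved the members' median from -0.28 to 1.76 and the summed level from -0.39 to 0.71 on the log2 scale. Single members ranged there from -0.45 to 1.56 (Defa24), -0.84 to 1.16 (Defa31), -0.28 to 4.89 (Defa30), -0.74 to 1.69 (Defa17), -0.43 to 1.96 (Defa22) and -0.75 to 0.83 (Defa26), the lowest in each case without Ctrl 2. Defa22 ranged from -0.14 to 2.26 in OE against Ctrl, and in OE against KO Defa21 ranged from -0.51 to 0.59, Defa22 from -0.039 to 0.63 and Defa5 from -1.32 to 0.12. With library weights the members' median was 0.027 in KO against Ctrl (9 members turned), 0.45 in OE against Ctrl (6 turned) and 0.65 in OE against KO (2 turned). KO against Ctrl was then -0.37 for Defa24, -0.58 for Defa31, -0.36 for Defa17, -0.22 for Defa21, -0.43 for Defa22 and -0.66 for Defa26, OE against Ctrl was -0.24 for Defa21 and -0.20 for Defa22, and OE against KO was -0.022 for Defa21. The cause of these turns was not tested. Counting precision cannot be given, since the depth is unknown.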
